A study of Arabidopsis thaliana with 8 samples.

Results

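Empty-vector inflorescences are the reference tissue of this experiment, and their transcript levels are described here on their own, from 2 of the 8 arrays. Both arrays were ranked together: 22746 probe sets, groups of probes that each stand for a transcript, were ordered by the mean of their 2 log2 values. The level given for a gene is this log2 array signal after robust multi-array averaging (RMA), so a difference of 1 is a 2-fold difference. Signals of different probe sets also depend on how well their probes bind, so the ranks are ranks of array signal, and no probe set was tested against another.

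All plants were *Arabidopsis thaliana* Columbia in the T2 generation, kept at 20°C, 55% humidity and 13 h of light per day. Control plants carried the pBAR vector without an inserted gene. The other 3 groups expressed *IaTCP1* from *Iberis amara*, *TCP1* from *Arabidopsis* or *CYC* from *Antirrhinum* in the same vector, from the CaMV35S promoter, and were chosen for altered petals. RNA came from secondary inflorescences on which every flower was still closed. Each group had 2 arrays, which the methods describe as technical RNA samples of a transgenic line, so the differences between them hold no spread between lines.

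An inflorescence at this stage mixes stem, young leaf-like sepals, petals, anthers, carpels and dividing meristem. Within an anther the tapetum, a layer of nurse cells, makes the lipids and proteins of the pollen coat and then breaks down as pollen matures. Green tissue carries photosynthesis genes in both the nucleus and the plastid, and growing tissue makes many ribosomes. In RNA of whole inflorescences, fewer cells of a type and less RNA per cell cannot be told apart.

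Levels ran from 2.96 to 13.97, with a median of 6.54. Only 6.70% of the probe sets (1524) reached a mean of 10, while 11.9% (2718) lay under 4. Names limit what can be said about the top of the ranking. In all, 13941 probe sets were paired with a single gene, but the share was 39.7% in the top 5% (1137 probe sets, level 10.34 or more) and 30.4% in the top 1% (227 probe sets, level 11.95 or more). Probe sets with no name in the tables used had a median of 7.13, against 6.09 for those in the platform's table. The gene composition below is therefore that of the named probe sets.

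Among the 25 strongest probe sets, 4 were named. They were *atpE* and *atpB*, which encode subunits of the chloroplast ATP synthase, the putative cell wall protein gene AT2G20870, and *RCA*, which encodes Rubisco activase. *atpE*, at rank 8, had 13.42 on array 1 and 13.61 on array 2. AT2G20870, at rank 12, had 13.35 and 13.41. The order at the top was only partly resolved: at 8 of the 25 steps down the ranking both arrays of the higher probe set lay above both of the next, and these 8 included the first 5. *atpB* (13.31 and 13.32, rank 14) and *RCA* (13.23 and 13.10, rank 25) each overlapped with the probe set below.

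Ribosomal proteins formed the largest group of named transcripts in the top 1%. Of its 69 named probe sets, 24 (34.8%) encode proteins of the cytosolic ribosome, 12 (17.4%) nuclear-encoded photosynthesis or other chloroplast proteins, 11 (15.9%) cell wall, cuticle or secreted proteins and 10 (14.5%) are plastid genes. These roles were given by hand after the names had been seen. They were given only to the 69, so the shares cannot be set against those over all named probe sets. The remaining 12 were 4 genes of primary metabolism, 3 with no role given, 2 stress-related genes, 1 anther gene and 2 others.

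**Figure D1:**
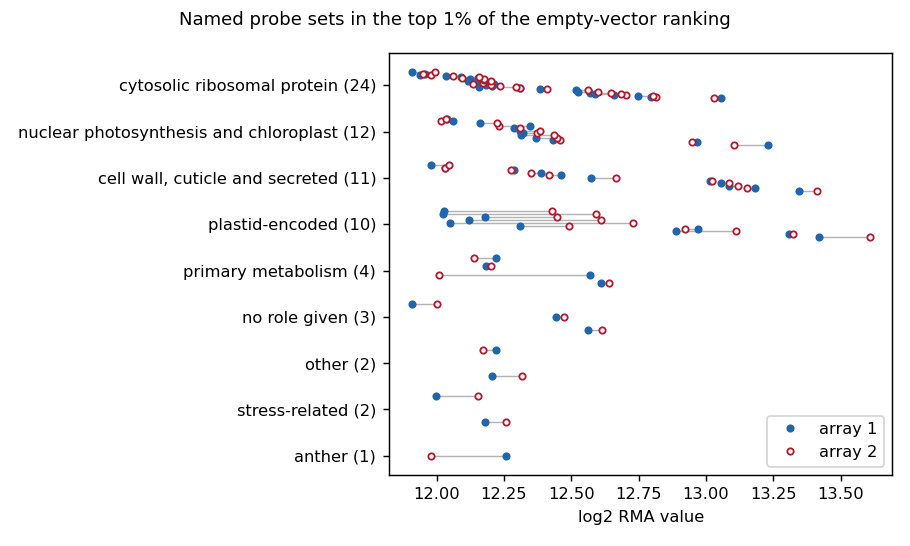
Levels (log2 RMA value, horizontal axis) of the 69 named probe sets in the top 1%, by class with the number of probe sets; each line joins array 1 (filled) and array 2 (open) of 1 probe set. The arrays lay close together for the ribosomal proteins, whereas array 2 was higher for 9 of the 10 plastid genes.

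The ribosomal proteins covered both subunits. The highest was AT5G20290, of the S8e family of the small subunit, with 13.06 and 13.03. The S4 gene AT5G15200 followed with 12.79 and 12.81, and the large-subunit gene AT3G60245, of the L37ae family, with 12.75 and 12.80. All 24 lay between 11.95 and 13.04, and none differed between the arrays by more than 0.14.

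Photosynthesis was represented by antenna proteins, reaction centre subunits and the Calvin cycle. *LHCB4.1*, which encodes an antenna protein of photosystem II, had 12.97 and 12.95, and its relative *LHCB4.2* had 12.04 on both arrays. *PSAN* and *PSAE-1*, for subunits of photosystem I, had means of 12.44 and 12.35, and *PSBW* and *PSBY*, for subunits of photosystem II, 12.37 and 12.19. The Calvin cycle genes *SBPASE* and *PRK* lay lower, at 11.68 and 11.63. Of 48 listed nuclear photosynthesis genes 9 had a named probe set; their median was 12.35, and all 9 were in the top 5%.

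Genes of the cell surface reached the same levels. AT5G33370, of the GDSL lipase family, had 13.18 and 13.15, and AT5G22430, of a family named after the olive pollen allergen Ole e 1, had 13.09 and 13.12. AT1G66850, of the lipid transfer protein family, had 13.06 and 13.08. *PRXR1*, which encodes a secreted class III peroxidase, and the defensin gene *LCR69* had means of 12.44 and 12.03. The single named anther gene of the top 1% was *ATA27*, which encodes a beta-glucosidase, with 12.26 and 11.98.

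Primary metabolism and cytoskeleton genes followed. *GAPC2* and *TPI*, which encode glycolytic enzymes, had 12.61 and 12.64, and 12.18 and 12.20. *SAMDC*, of polyamine synthesis, had 12.57 on array 1 and only 12.01 on array 2, the widest gap among the named nuclear genes of the top 1%. The alpha-tubulin gene *TUA6* had a mean of 11.72, the cyclophilin gene *ROC1* 11.93 and the histone gene *HTB2* 10.67. Of 19 listed housekeeping genes 4 were named, and besides *GAPC2* these were *UBC21* at 9.75, *SAND* at 8.18 and *TIP41* at 7.97. Named nuclear genes in the top 1% had a median annotated length of 1683 bp, introns included (59 genes), against 2125 bp over all 13793 named nuclear probe sets with a length.

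Organ markers were read from lists that name 269 genes, of which 74 had a named probe set. For 24 of these the name came only from the study's own tables, which were selected for change in these same samples, so those levels are not a neutral draw. The epidermis and cuticle list (15 genes) had no named member.

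The highest list median among the reproductive organs was that of the tapetum. The 13 named tapetum and pollen wall genes of 29 had a median of 9.84, and none lay below the median of all probe sets. *GRP16*, a pollen coat oleosin gene, had 11.38 on both arrays, and the tapetum gene *A9* (AT5G07230) had 11.27 and 11.42. *LAP5*, *CYP704B1*, *ACOS5* and *LAP6*, all enzyme genes of sporopollenin synthesis, had means between 9.90 and 10.17. The regulators were lower, with *AMS*, a tapetum transcription factor, at a mean of 8.90, the receptor kinase gene *EMS1* at 7.95, and *SPL*, needed to start sporogenous tissue, at 7.22. With the 5 members named in the platform's table alone, the median was 8.90.

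Pollen genes covered a far wider range. The median of the 14 named genes of 25 was 9.01, and 7.11 for the 6 in the platform's table. The polygalacturonase gene *PGA4* had 11.01 and 10.93, and the arabinogalactan protein gene *AGP23* had 10.88 and 10.91. *ANX2* (4.98 and 5.03) and *ANX1* (4.21 and 4.15), receptor kinases that keep growing pollen tubes from bursting, lay below the median of all probe sets. The stamen maturation factor *MYB21* was read by 2 probe sets with means of 10.44 and 8.61, *MYB24* had 8.62 and *MYB108* 6.99.

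Meiosis genes were all low. Each of the 5 named of 18 lay below the median of all probe sets, from *MND1*, a partner of the meiotic recombinase, with 5.32 and 5.39, down to the meiotic cyclin gene *SDS* with 4.11 and 3.96. The 3 named of 24 genes of mitotic division were higher, namely the replication helicase gene *PRL* (8.45 on both arrays) and the Aurora kinase genes *AUR1* (mean 8.14) and *AUR2* (7.94).

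In the carpel and ovule list, with 4 of 16 genes named, the fruit patterning gene *ALC* had 8.74 and 8.87, *NGA1*, a regulator of style growth, 8.15 and 8.33, *SPT* 7.05 and 7.10, and *INO*, active in the outer ovule integument, 4.95 and 5.18. The 3 genes put in the nectary list ranged from the sugar transporter gene *SWEET10* (10.01 and 10.07) to *SWEET9* (6.50 and 6.79). The study lists *SWEET10* as raised with *IaTCP1*. The cell wall invertase gene *CWINV4*, needed for nectar, lay between them with 8.55 and 8.39.

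Regulators of floral identity differed widely in signal, with *AP1* far above the others. *AP1*, which specifies floral meristems and the outer organs, had 11.12 and 11.16 at rank 566, and was named only in the study's tables. The co-repressor gene *SEU* had a mean of 7.81 and the MADS gene *SVP* 6.10. *UFO*, *AGL24*, *RBE* and *NUB* lay between 4.08 and 4.77, and the median of the 9 named of 27 was 5.45, or 4.77 for the 7 in the platform's table. The other listed genes of this group, among them *LFY*, *AP3*, *PI* and *AG*, were not analysed here. In the meristem list, with 2 of 14 genes named, *KNAT1* had 8.19 and 8.07 and the stem cell signal gene *CLV3* 4.14 and 4.22.

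Markers of other organs, of which 4 of 10 root genes and 1 of 16 seed genes were named, were mostly low. The root hair expansin genes *EXPA7* (4.26 and 4.36) and *EXPA18* (4.08 and 4.27) and the root beta-glucosidase gene *PYK10* (3.81 and 3.94) lay near the lower end of the scale. *IRT1*, an iron transporter gene of the root epidermis named only in the study's tables, had 7.01 and 6.86. The seed oleosin gene *OLEO3* had 5.85 and 6.09.

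**Figure D2:**
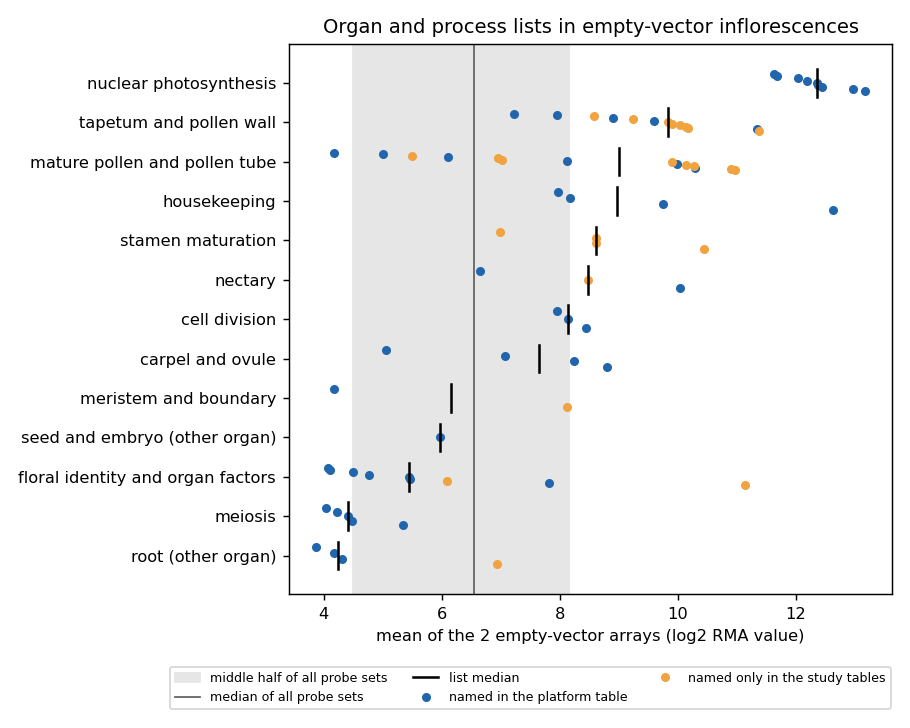
Mean of the 2 empty-vector arrays (log2 RMA value) for each named member of 13 organ and process lists; black bars are list medians, the grey band spans the 25th to 75th percentile of all 22746 probe sets, and orange points are named only in the study's tables. Nuclear photosynthesis genes (median 12.35) and tapetum genes (9.84) lay furthest to the right, meiosis (4.41) and root genes (4.24) furthest to the left.

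Gene families sorted by symbol also differed in level. Of 42 families with at least 6 probe sets, 25 had a median below that of all probe sets (6.54). Families were formed only from probe sets named in the platform's table, whose own median was lower, at 6.09. The 47 UGT probe sets, of glycosyltransferase genes, had a low median of 4.89. The 14 SWEET sugar transporters (8.86, led by *SWEET1* at 11.41) and the 8 aldehyde dehydrogenases (9.71) were high. Among 110 probe sets of genes annotated as transcription factors none was in the top 1% and 3 were in the top 5%, namely *AP1*, *MYB21* and the stress regulator *NAC019*. Among all 13941 named probe sets 69 were in the top 1% and 451 in the top 5%, so these counts do not set transcription factors apart. *AP1*, *MYB21* and *NAC019* are named only in the study's tables, and of the 33 found by symbol alone none was in the top 5%.

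The 2 RNA samples were close. Their values correlated with r = 0.9971 over the 22746 probe sets, which share both arrays, and differed by a median of 0.10 on the log2 scale, or 1.08-fold. For 81.4% the difference was within 0.2, and for 95% within 0.31. The median differences within the *IaTCP1*, *TCP1* and *CYC* groups were 0.12, 0.11 and 0.08. The difference was smallest at the ends of the scale, at 0.07 for levels under 4 and 0.05 for levels of 12 and over, and widest (0.12) between 6 and 8.

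Large gaps were nevertheless more frequent in the control than in the other groups. A difference of at least 2-fold was found for 24 probe sets in the control and for 4, 2 and 2 in the *IaTCP1*, *TCP1* and *CYC* groups. The 13 that were higher in control 2 were all plastid probe sets: 10 name a single plastid gene, and the other 3 list several genes, all in the plastid. The largest gap was that of *rpl20*, for a protein of the plastid ribosome, with 4.86 on array 1 and 6.60 on array 2. *petL*, of the cytochrome b6f complex, had 6.16 and 7.47, and *ndhJ*, of the NADH dehydrogenase-like complex, 7.34 and 8.64. At a higher level *atpA*, of the ATP synthase, had 10.35 and 11.43.

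Of the 11 probe sets that were at least 2-fold lower in control 2, 5 had a name, and none of these 5 was a plastid gene. AT5G13030 had 6.96 and 5.21, AT1G33470 had 6.84 and 5.44, and AT2G45670 had 6.88 and 5.64. All 11 were also lower on array 2 in each of the other 3 groups. Over all probe sets 14.2% were lower on array 2 in all 4 groups. That share also counts the control, for which the 11 were chosen, so it is not the matching share for the other 3 groups. AT5G13030, for instance, had 6.67 and 5.19 with *IaTCP1*, 5.45 and 5.01 with *TCP1* and 5.92 and 5.03 with *CYC*. Over all probe sets the differences between arrays 2 and 1 correlated between groups, with r of 0.16 to 0.52. The labels and methods give no shared source for arrays of equal number, and the source of this correlation was not tested.

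**Figure D3:**
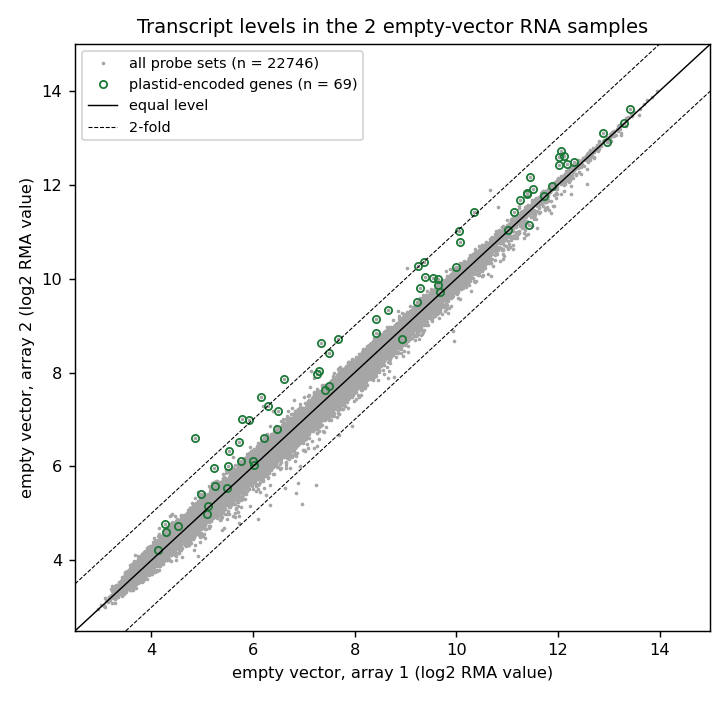
Level of each of 22746 probe sets on empty-vector array 1 (horizontal) and array 2 (vertical), both as log2 RMA values; green circles are the 69 plastid-encoded genes, the solid line marks equal levels and dashed lines a 2-fold difference. Most green circles (65 of 69) lie above the line.

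Plastid transcripts as a group separated the 2 samples. Of the 69 probe sets of single plastid genes 65 were higher on array 2, with a median difference of 0.42, whereas 54.8% of all other probe sets were higher, with a median of 0.02. Among the 9 nuclear photosynthesis genes 4 were higher, and their median difference was -0.00. The 20 mitochondrion-encoded probe sets, with a median level of 4.99, had a median difference of 0.10, and 16 were higher on array 2. The source of the plastid difference was not tested.

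Genes of most plastid complexes took part. All 15 probe sets of photosystem II were higher on array 2, as were all 6 of the ATP synthase (median difference 0.83), all 6 of cytochrome b6f (0.43), all 4 of the plastid RNA polymerase (0.56) and all 8 of the small ribosomal subunit (0.51). In the NADH dehydrogenase-like complex 7 of 10 were higher. Within the ATP synthase *atpB* differed by 0.02 and *atpA* by 1.08, so that subunits of a single complex varied widely. Signals ran from *atpE* at 13.51 to *rpoB*, of the RNA polymerase, at 4.18. *rbcL*, for the large subunit of Rubisco, had 8.65 and 9.34, and *psbA*, for a reaction centre protein of photosystem II, 7.49 and 7.72.

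A similar shift occurred in 2 of the other groups. The median plastid level was 8.65 and 9.14 on the control arrays, 9.38 and 9.74 with *TCP1*, and 9.32 and 9.61 with *CYC*. With *IaTCP1* it was 9.56 and 9.39, and 33 of 69 probe sets were higher on array 2. Control 1 thus had the lowest median of the 8 arrays and control 2 the next lowest.

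**Figure D4:**
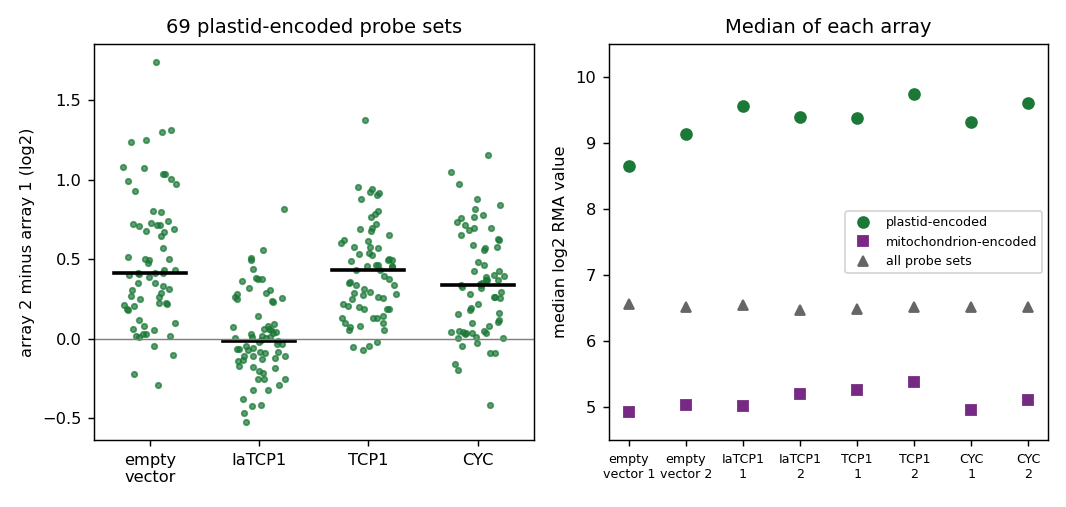
Left, array 2 minus array 1 (log2) for the 69 plastid-encoded probe sets in each group, with the group median as a bar. Right, the median log2 RMA value of plastid-encoded, mitochondrion-encoded and all probe sets on each of the 8 arrays; the plastid median ran from 8.65 to 9.74 while that of all probe sets stayed between 6.48 and 6.56.

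Smaller differences were shared within some nuclear families. In 10 of the 42 families every probe set differed in the same direction between the control arrays, in 9 of them upward on array 2. One of these 9 consists of plastid ribosomal protein genes. Over all probe sets 55.0% were higher on array 2 in the control. In the *IaTCP1*, *TCP1* and *CYC* groups the share was 54.2%, 48.7% and 51.4%. All 8 autophagy (ATG) probe sets, of which 7 are *ATG8* genes, were higher on array 2, with a median of 0.20, and so were 7, 8 and 8 of them in the *IaTCP1*, *TCP1* and *CYC* groups. All 8 aldehyde dehydrogenases were lower, by a median of -0.14, from *ALDH11A3* with 11.56 and 11.26 to *ALDH10A9* with 9.04 and 8.99, but 1, 4 and 2 of them were higher on array 2 in the *IaTCP1*, *TCP1* and *CYC* groups. Of the 9 XTH probe sets, all higher on control 2, 5 were higher on array 2 in each of the other groups, near the share over all probe sets. Members of a family can share sequence and are not independent of each other.

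The level of the control was also set against the mean of the 3 transgenic groups, to ask where in the ranking the differences lay. The ranking used the same control arrays, so a set taken from its top leans by its choice towards higher values in the control, and its direction is given as a description only. Calls needed a 2-fold difference or more and an adjusted p (Benjamini-Hochberg, over all probe sets) no higher than 0.05 in a limma fit to all 8 arrays. The spread in this fit is that between technical RNA samples of a line. Its standard errors and p-values therefore hold no spread between lines. Of all 22746 probe sets 2.13% were called, 1.38% higher and 0.747% lower in the control. In the top 1% none of the 227 was called, and without the fold minimum 49 (21.6%) had an adjusted p of 0.05 or less, against 22.8% of all probe sets. An unadjusted p under 0.05 was found for 67 (29.5%), against 35.4% (8048) of all probe sets. Their differences ran from -0.83 to 0.71.

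The lowest of these values was that of *PRXR1*, whose control level of 12.44 was 0.83 below the mean of the transgenic groups (log2 difference -0.83, standard error 0.07, limma adjusted p = 2.12e-06). In the separate comparisons, where 3.32%, 1.91% and 3.08% of all probe sets were called for *IaTCP1*, *TCP1* and *CYC*, a single member of the top 1% was called. This was *LCR69* against *CYC*, with 12.03 on both control arrays and 10.93 and 10.92 on the *CYC* arrays (difference 1.11, standard error 0.08, limma adjusted p = 9.83e-07). The strongest transcripts were also largely shared, as 198 (87.2%), 201 (88.5%) and 200 (88.1%) of the 227 were in the top 1% of the *IaTCP1*, *TCP1* and *CYC* groups.

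**Figure D5:**
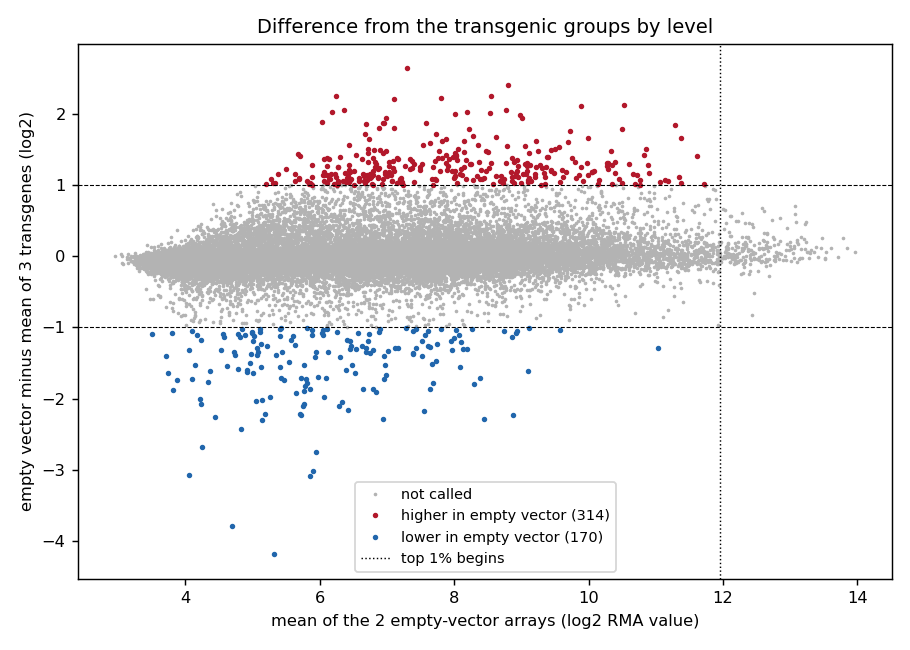
Difference between the empty vector and the mean of the 3 transgenic groups (log2, vertical) against the mean control level (log2 RMA value, horizontal) for 22746 probe sets; red and blue points were called higher (314) and lower (170) in the empty vector, dashed lines mark 2-fold and the dotted line the start of the top 1%. No called probe set lies to the right of the dotted line.

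In the top 5%, 28 of 1137 probe sets (2.46%) were called, close to the 2.13% over all probe sets. Of the 28, 27 were higher in the control, the direction that the ranking itself favours. The widest difference was that of AT1G12080, annotated as related to vacuolar calcium binding. It had 10.47 and 10.59 in the control and values from 7.93 to 8.91 on the 6 other arrays (difference 2.12, standard error 0.08, limma adjusted p = 4.93e-09). *ESM1*, which acts in glucosinolate breakdown, had 11.34 and 11.24 against 8.78 to 9.96 (difference 1.84), and *NAC019* 10.37 and 10.41 against 8.25 to 9.64 (1.32). In each of these the control arrays lay above all 6 others, which together with the reverse case held for 26.8% of all probe sets. *COR47*, a dehydrin gene, and *ELIP2*, an early light-induced chloroplast protein gene, were also called (differences 1.16 and 1.07).

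Some reproductive markers were called higher in the control, where 1.38% of all probe sets were. In the tapetum and pollen wall list these were 4 of 13, and 2 of the 5 members named in the platform's table, namely *A9* (difference 1.11), *AMS* (1.03), *GRP16* and *ABCG26* (1.02 each). *A9* and *AMS* are the 2 from the platform's table, and the 8 members not named there come from tables selected for change in these samples. The study also reports *AMS* as lowered with *CYC*, so a name in the platform's table does not make a member free of that selection. In the pollen list 4 of 14 were called higher, and 2 of the 6 from the platform's table, AT3G07820 and AT5G45880 (1.31 each). The study also lists AT3G07820 and AT5G45880 as lowered with *IaTCP1* and *TCP1*, so their calls restate changes found in these same arrays. *TUA1*, also from the platform's table, went the other way (-0.90, limma adjusted p = 2.39e-05) but missed the fold minimum. *ANX1* differed by only 0.15, at a level near the lower end of the scale. The mean of the transgenic groups joins unlike values here: the median of the list was 9.06 and 8.95 on the control arrays, 7.62 and 7.66 with *IaTCP1*, 8.74 on both arrays with *TCP1* and 9.54 and 9.47 with *CYC*. Of the 4 stamen maturation probe sets those of *MYB24* (1.67) and *MYB108* (1.47) were higher, both named only in the study's tables. *IRT1* was higher (1.45) and *OLEO3* lower (-1.69) in the control. None of the members of the nuclear photosynthesis, meiosis, meristem, carpel, nectary, floral identity, cell division or housekeeping lists was called. These lists are short, and 2.13% of all probe sets were called. Several members, among them most meiosis genes and *CLV3*, lay near the lower end of the scale. That leaves them little room to be called higher in the control. Some members missed only the fold minimum, among them *KNAT1* (-0.95, limma adjusted p = 1.23e-06) and *SWEET10* (-0.60, 9.56e-05). So did *CWINV4* (0.84, limma adjusted p = 4.68e-06) and *AP1* (0.82, 3.93e-06).

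Many plastid genes, mostly those of weaker signal, lay lower in the control. Of 69 probe sets 23 (33.3%) were called lower and none higher, against 0.747% called lower over all probe sets, and their median difference was -0.56. The count moved with the control array used: without control 1, the array with the lowest plastid level, 15 were called, and without control 2 it was 33. Both control arrays lay below all 6 others for 30 of the 69, as they did for 14.6% of all probe sets.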

How the data were processed

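The authors hybridised biotin-labelled RNA of 8 samples to Affymetrix ATH1 arrays, normalized them by RMA and deposited log2 values, with Partek named in their processing notes (versions are not given in the sources used here). These log2 values were used as deposited; their small number limits what can be resolved. Of 22810 rows 64 hybridization controls were left out. Names came from the platform table (13513 probe sets with 1 gene, 503 with several) and the study's tables (428 more), leaving 8302 unnamed. Location in an organelle and gene length came from RefSeq TAIR10.1.

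Ranks were taken with Python 3.11.15 and pandas 2.3.3. Groups were compared with limma 3.58.1 in R 4.3.3 (lmFit, then eBayes, with a mean for each group and 4 residual degrees of freedom, to which eBayes added 7.9), and the fit was tested on simulated data. Figures were drawn with matplotlib 3.10.9. Genes were named by rule: the 25 highest probe sets, up to 6 highest members and the lowest of each list, up to 4 highest of each class, the widest differences between the control arrays and members of the top 1% called in a comparison. Other named genes of the top 5%, families and plastid complexes were chosen after their values were seen. Members and lists were chosen with earlier results of these data known. Alternatives were another ranking, normalization, filter, fold minimum, a replicate block, leaving out arrays and, added after seeing the data, leaving out organelle genes. Promoter motifs were not searched, as no promoter sequences were used here. Some items are not reported here.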

Additional observations from a re-analysis of the deposited data

How the results depend on the processing

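The count of probe sets called between the control and the mean of the transgenic groups depended on the fold minimum. Without it 5185 were called in place of 484 (2920 higher and 2265 lower), and 49 in the top 1% in place of 0. Leaving out each array in turn gave 481 to 498 calls over all probe sets, 0 in the top 1%, and 15 to 33 among the plastid genes, where the lowest count was that without control 1. Leaving out an array of the compared groups gave 770 to 784 calls for *IaTCP1*, 435 to 461 for *TCP1* and 685 to 733 for *CYC*. Cyclic loess gave 488 calls, quantile normalization 457, a minimum mean of 6 on the log2 scale 348, and leaving out organelle genes 461.

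With the replicate number as a block, 484 probe sets were called against the mean of the transgenic groups and 757, 437 and 700 for *IaTCP1*, *TCP1* and *CYC*. The block left the counts for the top 1% (0) and the plastid genes (23) as they were. Differences between arrays 2 and 1 correlated over probe sets with r of 0.16 to 0.52 for the 6 pairs of groups.

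Of the 227 probe sets in the top 1%, 227 were shared when unlogged values were averaged, 226 after quantile normalization, and 220 and 219 from a single array. Leaving out probe sets marked as sharing probes removed 35 of the 227. The other 192 then stay by construction, so that count does not test the ranking. The median difference between the control arrays lay between 0.10 and 0.11 under 4 alternatives. A group of 2 RNA samples from a line limits all of these values, and levels near the lower end of the scale cannot be told from background signal.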
